A study of Mus musculus with 9 samples.

Results

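Aminoacyl-tRNA synthetases are the enzymes that join each amino acid to its transfer RNA before protein synthesis. The 36 genes of this family described here were the rows of the authors' gene table whose symbol is on a list of 20 cytosolic or shared enzymes (such as Aars and Yars) and 16 mitochondrial ones (whose symbols end in 2). All 36 were found, of 23285 genes in the table.

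RNA sequencing was done on immature erythroid cells sorted from the bone marrow of C57BL/6 mice, in 3 groups of 3 libraries each. KOb cells came from TRIM28(flox/flox):Mx1Cre mutants, are described as severely deleted, and were CD71(hi)TER119-. KOa cells came from mutants of the same genotype, are described as modestly deleted, and were CD71(hi)TER119+, as were the FFa control cells from TRIM28(flox/flox) mice with no Cre. TRIM28 is a transcriptional corepressor, CD71, the transferrin receptor, marks young erythroblasts, and TER119 appears as they mature. Mx1Cre is switched on by interferon and is not limited to erythroid cells. The mutants received 5 injections of poly(I:C) and were analysed 2 weeks later, but whether the controls were injected is not stated. Ages and pooling of animals are not given either. The series description puts the undeleted share of the gene at 1 to 4% in KOb and 5 to 8% in KOa. In KOb the sort gate and the degree of deletion differ together from both other groups and cannot be told apart, and neither can Cre and the deletion in the mutants against FFa.

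Each amino acid has its own synthetase, and in the cytosol 8 of the enzymes on the list (Dars, Eprs, Iars, Kars, Lars, Mars, Qars and Rars) sit in one multi-synthetase complex held together by scaffold proteins. Mitochondria use a largely separate set of enzymes, encoded in the nucleus, to translate the few proteins of their own genome, although Gars and Kars each encode both forms. Uncharged tRNA activates the kinase GCN2, which phosphorylates eIF2 alpha and raises translation of the transcription factor ATF4. Several cytosolic synthetase genes are known ATF4 targets, through a composite C/EBP-ATF response element (CARE). In erythroid cells the main eIF2 alpha kinase is HRI, the product of Eif2ak1, which is activated when heme is short.

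Promoter windows from RefSeq (build GRCm38.p6, the assembly also called mm10) running from 250 bases before to 50 after each transcript start were matched for 27 of the 36 genes. Those with no window were Cars, Hars, Lars, Nars, Rars, Vars, Wars, Hars2 and Pars2. The CARE was searched as TGATGNAA on both strands, where N is any base. It was found in 5 of the 28 windows of these 27 genes, in 5 cytosolic genes, against 3.97% of all 32851 windows. These 5 stretches are shown because many genes on the list of the ATF4 and amino acid response were called in the mutants, as described below. The activity of ATF4 was not measured. Each runs 5′ to 3′ on the gene's strand from 120 bases before to 30 after the start, with the CARE in capitals (TGATGCAA or, on the other strand, TTGCATCA or TTTCATCA).
Aars: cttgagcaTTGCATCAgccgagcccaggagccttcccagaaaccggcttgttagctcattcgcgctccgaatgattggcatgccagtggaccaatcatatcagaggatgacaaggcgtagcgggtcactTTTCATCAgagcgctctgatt
Gars: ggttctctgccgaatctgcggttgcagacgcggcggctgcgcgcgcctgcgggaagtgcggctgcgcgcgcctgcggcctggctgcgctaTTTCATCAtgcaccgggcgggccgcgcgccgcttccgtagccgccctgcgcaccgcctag
Iars: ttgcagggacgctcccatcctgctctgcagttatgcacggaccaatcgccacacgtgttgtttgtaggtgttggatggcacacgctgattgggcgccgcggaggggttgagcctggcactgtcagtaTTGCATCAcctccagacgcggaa
Tars: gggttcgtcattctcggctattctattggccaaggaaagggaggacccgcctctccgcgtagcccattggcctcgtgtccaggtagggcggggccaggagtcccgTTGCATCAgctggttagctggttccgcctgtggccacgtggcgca
Yars: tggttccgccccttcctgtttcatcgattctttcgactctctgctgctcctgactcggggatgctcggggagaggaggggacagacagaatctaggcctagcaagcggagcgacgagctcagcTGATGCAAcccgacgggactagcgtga
Aars, at chr8:111033722-111033871 on the plus strand, holds 2 matches, which begin 112 bases before and 10 after the start. In Gars (chr6:55037881-55038030, plus strand) the match begins 30 bases before the start, and in Tars (chr15:11399629-11399778, minus strand) 15 bases before it. Iars (chr13:49682010-49682159, plus strand) and Yars (chr4:129189783-129189932, plus strand) have theirs 8 and 4 bases after the start. An E-box, CACGTG, which MYC and related factors bind, was in the windows of Aars, Ears2, Farsb, Iars and Tars, against 7.15% of all windows. The shorter CCAAT, on either strand, was in 13 of the 28 windows, in 13 genes, against 37.4% of all windows. The median share of G and C bases was 57.33% in the 28 windows and 52.67% in all windows, and the motif shares were not adjusted for it. A match of letters is a description of the window and does not show that a factor binds there.

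**Figure D1:**
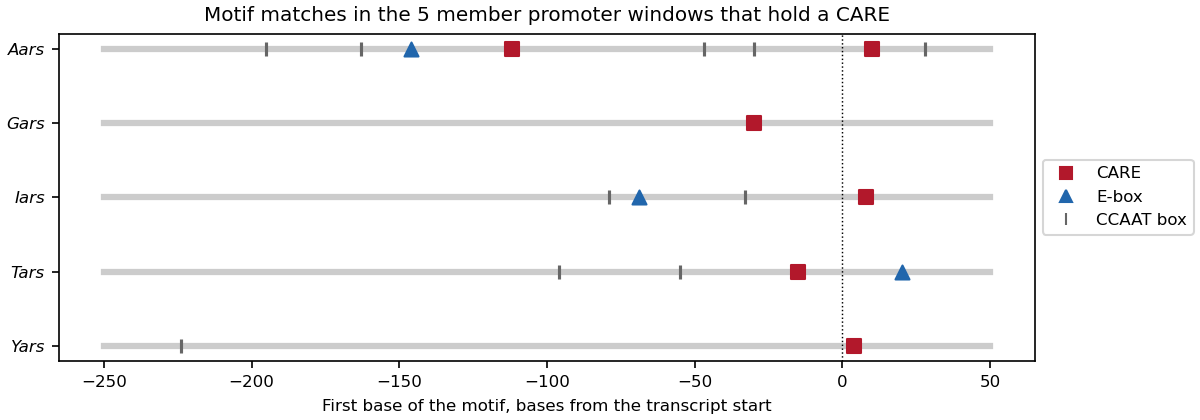
Matches to 3 motifs in the promoter windows of the 5 synthetase genes that hold a CARE, by distance in bases from the transcript start (dotted line) to the first base of the motif. The 6 CARE matches lie between 112 bases before and 10 bases after the start.

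The levels are FPKM, a count of fragments scaled by transcript length and library size, with 1 value per gene and group in the authors' deposited table. The 3 libraries of a group are already merged in it, so no value has an SD, the depth of each library is unknown, and the number of libraries that share a direction cannot be counted. Log2 ratios and q values below are those of the authors' deposited table, from Cuffdiff, and the error after ± is the standard error implied by its test statistic. A gene is called where its test was completed and its q is below 0.05. The p-values measure the spread between libraries, which the labels do not say came from separate mice. Trim28 itself had 4.76 FPKM in KOb, 6.64 in KOa and 26.0 in FFa, and was called lower in both mutants against FFa. Its difference between KOb and KOa was not called (-0.48 ± 0.32, deposited q = 0.0535). The RNA of the deleted gene thus goes with the labels of mutant and control. The ranking of the mutants by deletion rests on the labels.

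Of the 10 erythroid markers looked for, 9 were matched and each was above 1 FPKM in every group, with sums of 2976 FPKM in KOb, 4611 in KOa and 5596 in FFa. Alas2, the first enzyme of heme synthesis in red cells, was lower in both mutants. Markers of other blood cells moved as well. All 9 B cell markers were called lower in KOb and in KOa against FFa, with sums of 19.8 FPKM in KOb, 21.2 in KOa and 233 in FFa. Macrophage and monocyte markers (8 of 8 called lower in KOb, 7 of 8 in KOa) summed to 78.7, 71.5 and 328 FPKM in the same order, and the 10 granulocyte markers (6 called lower and 1 higher in KOb, 4 lower and 1 higher in KOa) to 13427, 16581 and 48860. S100a8, named after its values were seen, made up most of these granulocyte sums, at 12080, 14820 and 34930 FPKM. Its fall was not called in KOa (deposited q = 0.106). In each mutant 3 of the 10 granulocyte markers had a ratio to FFa above 0, and the 1 called higher was Mpo, at 27.3, 21.7 and 8.15 FPKM. The 6 megakaryocyte markers summed to 54.5, 67.8 and 34.0 FPKM, with 3 of 4 tested called higher in each mutant. The 8 T and NK cell markers summed to 16.5, 17.0 and 21.4 FPKM. Of 7 tested, 3 were called lower and 1 higher in KOb, and 2 lower and 1 higher in KOa. In each mutant 6 of the 7 ratios to FFa were below 0. Nkg7, named after its values were seen, was called higher in both (10.2, 9.16 and 3.93 FPKM). Sums were 22.0, 18.3 and 31.5 for 6 mast cell and basophil markers, with 1 called higher and 1 lower in each mutant. Of all tested genes, 12.8% were called higher and 15.2% lower in KOb, and 7.99% and 14.1% in KOa. Ms4a2, of that last list and named after its values were seen, was listed at 0 in FFa, and no other marker of these lists was at 0 in any group. Every nucleated cell type expresses synthetase genes, and the part of these other cells in the ratios below was not tested. Fewer cells of a type and less RNA per cell cannot be told apart in sorted bulk samples.

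All 36 synthetase genes were detected in every group. The 20 cytosolic genes had a median of 11.7 FPKM in KOb, 10.4 in KOa and 8.14 in FFa, and the 16 mitochondrial ones 2.29, 1.54 and 1.82. The lowest cytosolic gene was at 5.03 FPKM in KOb (Lars), 3.91 in KOa (Lars) and 3.41 in FFa (Iars). The highest was Dars in KOb (47.0), Nars in KOa (39.2) and Hars in FFa (35.4). Among mitochondrial genes Lars2 was the highest in each group, at 29.8, 22.5 and 57.9 FPKM in KOb, KOa and FFa, and the next of them, Iars2 in KOb (8.74) and Fars2 in KOa (5.89) and FFa (6.58), were far below it. Libraries were made from total RNA, and whether all reads counted for Lars2 came from its mRNA was not tested. Below 1 FPKM were 5 mitochondrial genes in KOb, 7 in KOa and 4 in FFa. For 13 amino acids both a cytosolic and a mitochondrial gene are listed, and the cytosolic one had the higher FPKM in all 3 groups for 11 of them. The exceptions were leucine, where the ratio of Lars to Lars2 was 0.168 in KOb, 0.174 in KOa and 0.0601 in FFa, and isoleucine, at 0.657, 0.898 and 0.659.

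**Figure D2:**
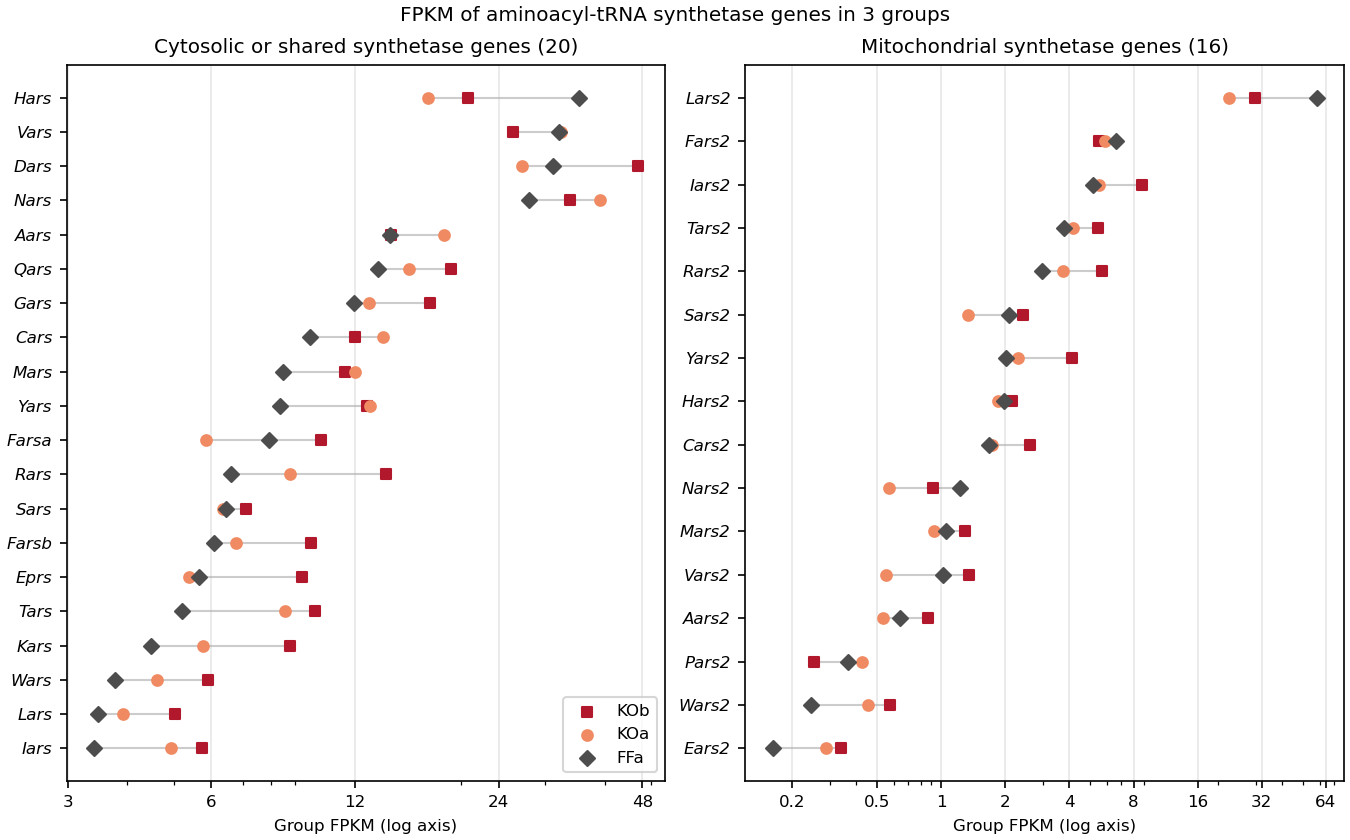
Group FPKM (log axis) of the 20 cytosolic or shared and the 16 mitochondrial synthetase genes in KOb (squares), KOa (circles) and FFa (diamonds), ordered by FFa, with 1 value per group and no error. KOb is the highest of the 3 groups for 13 cytosolic and 12 mitochondrial genes, and Hars and Lars2 stand out with FFa well above both mutants.

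Comparing KOa with FFa asks what the milder deletion did within the same TER119-positive gate. In KOa 5 synthetase genes rose and 4 fell of 35 tested, against 7.99% of all tested genes called higher and 14.1% called lower. The 5 that rose were all cytosolic (Cars, Iars, Nars, Tars and Yars), and 3 of the 4 that fell were mitochondrial (Lars2, Nars2 and Vars2, beside Hars). The median log2 ratio was 0.25 over the 20 cytosolic genes and -0.09 over 15 mitochondrial ones, beside -0.08 over all 10761 tested genes. Ears2, the mitochondrial glutamyl gene, had no completed test in any comparison and was at 0.337 FPKM in KOb, 0.289 in KOa and 0.161 in FFa.

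Tars, the threonyl enzyme gene (chr15:11383663-11399658 on mm10), had 8.56 FPKM in KOa against 5.21 in FFa, a log2 ratio of 0.72 ± 0.31 with a deposited q of 0.00248. Yars, for tyrosine, was at 12.9 FPKM in KOa against 8.36 in FFa (0.63 ± 0.30, deposited q = 0.00548). These were the 2 cytosolic rises of smallest q. Iars, for isoleucine, had 4.95 FPKM in KOa against 3.41 in FFa (0.54 ± 0.32, deposited q = 0.0247). For cysteine, Cars had 13.7 against 9.66 FPKM (0.50 ± 0.31, deposited q = 0.0228), and for asparagine, Nars had 39.2 against 27.7 FPKM (0.50 ± 0.29, deposited q = 0.0224). Of the other cytosolic genes, Mars had a ratio of the same size as Cars (0.50 ± 0.47) but missed the threshold (deposited q = 0.171), and so did Rars, Aars and Kars at 0.41, 0.37 and 0.36.

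Hars, the histidyl enzyme gene, went the other way, with 17.1 FPKM in KOa against 35.4 in FFa. KOa thus held 48.2% of the control level (log2 ratio -1.05 ± 0.28, deposited q = 0.000619). That q is the smallest in the table and goes with the smallest Cuffdiff p, 5e-05. Many genes share it, so it does not rank them. Hars lies next to Hars2 on the opposite strand, and 7.97% of its annotated exon bases are also covered by Hars2. Whether the authors' counting used strand is not stated, so reads from that stretch cannot be assigned. Hars2, with 4.56% of its exon bases covered by Hars, was at 1.86 FPKM in KOa and 1.97 in FFa and was not called (-0.09 ± 0.39). The part of shared reads in the fall of Hars was not tested. Lars2, the mitochondrial leucyl gene (chr9:123366940-123462664), had the largest fall, with 22.5 FPKM in KOa against 57.9 in FFa, or 38.8% of the control (-1.37 ± 0.29, deposited q = 0.000619). Nars2 and Vars2, for mitochondrial asparagine and valine, were low genes in both groups. Nars2 had 0.567 FPKM in KOa against 1.23 in FFa (-1.11 ± 0.51, deposited q = 0.00405), and Vars2 had 0.553 against 1.02 FPKM (-0.89 ± 0.49, deposited q = 0.0215). With 1 added to each FPKM before the log, which shrinks the ratios of low genes, these were -0.51 for Nars2 and -0.38 for Vars2.

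The p of Cuffdiff is smaller than the normal p of the same statistic for most of these genes. When the normal p was used instead, adjusted by Benjamini-Hochberg over all tests, 0 synthetase genes were higher in KOa and 2 were lower, against 2.83% and 5.02% of all tested genes. The 2 were Hars and Lars2. At an unadjusted p below 0.05, 8 were higher and 6 lower with the deposited p from Cuffdiff, and 2 and 3 with the normal reading.

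KOb against FFa sets the stronger deletion, in TER119-negative cells, against the control. Here 15 of 35 tested synthetase genes were called higher and 2 lower, against 12.8% of all tested genes called higher and 15.2% called lower. Of the 15, 11 were cytosolic and 4 mitochondrial, and the 2 that fell were Hars and Lars2. The median log2 ratio was 0.53 over the 20 cytosolic and 0.39 over 15 mitochondrial genes, beside -0.01 over all 10584 tested genes, and 29 of the 35 ratios were above 0. Among genes with a mean level between 5 and 50 FPKM, 9 of 20 synthetase genes were called higher, against 15.8% of all tested genes in that range. This comparison shares the FFa libraries with the previous one.

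Genes of the multi-synthetase complex were called higher in 6 of 8 cases in KOb (median log2 ratio 0.65). Rars, the arginyl enzyme (chr11:35808381-35834528), had 14.0 FPKM in KOb against 6.59 in FFa, which was 2.12-fold and the largest cytosolic rise (1.08 ± 0.30, deposited q = 0.000619). Kars, the lysyl enzyme of both compartments, had 8.78 against 4.48 FPKM (0.97 ± 0.35, with the same q), and Iars had 5.74 against 3.41 (0.75 ± 0.31, deposited q = 0.00161). Eprs, a single protein with glutamyl and prolyl activities, was at 9.28 FPKM in KOb against 5.64 in FFa (0.72 ± 0.31, deposited q = 0.00161). Lars (0.53 ± 0.32) and Qars (0.51 ± 0.31), for leucine and glutamine, rose by less. The 2 complex members that were not called were Dars, with 47.0 against 31.2 FPKM (0.59 ± 0.48, deposited q = 0.113), and Mars, with 11.5 against 8.47 (0.44 ± 0.46, deposited q = 0.239). Both have larger implied errors than the other members, and their ratios lie within the range of the called ones or just under it.

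Outside the complex, 5 of 12 cytosolic genes rose in KOb and 1 fell (median 0.34). Tars had 9.91 FPKM in KOb against 5.21 in FFa (0.93 ± 0.31, deposited q = 0.000619). Farsb, the beta subunit of the phenylalanyl enzyme, rose by 0.67 ± 0.31 (9.69 against 6.08 FPKM), while Farsa, the alpha subunit of the same enzyme, had 10.2 against 7.92 FPKM and was not called (0.37 ± 0.30, deposited q = 0.170). The tryptophanyl gene Wars (0.65 ± 0.39), Yars (0.60 ± 0.30) and the glycyl gene Gars (0.53 ± 0.29) rose as well. Cars, Nars, Aars, Sars and Vars were not called in KOb, with ratios between -0.32 (Vars, 25.7 against 32.1 FPKM) and 0.31 (Cars). Hars was at 20.7 FPKM in KOb against 35.4 in FFa, or 58.5% of the control (-0.77 ± 0.27, deposited q = 0.000619).

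Among mitochondrial genes, Wars2, Yars2, Rars2 and Iars2 rose in KOb. Yars2 had 4.10 FPKM in KOb against 2.02 in FFa, a 2.04-fold rise (1.02 ± 0.47, deposited q = 0.00248). Rars2 had 5.66 against 2.98 FPKM (0.92 ± 0.36, with the same q) and Iars2 had 8.74 against 5.17 (0.76 ± 0.39, deposited q = 0.00901). Exons of genes on the other strand, among them Rab3gap2, cover 24.2% of the annotated exon bases of Iars2, and their reads cannot be told apart without strand. Shares larger than that of Hars were also found on the other strand for Farsb (9.47%), Fars2 (10.7%) and Vars2 (8.52%). For Aars 14.3% of exon bases are shared with a gene on the same strand. Wars2 had the largest ratio of the family, 1.23 ± 0.68, but at 0.573 FPKM in KOb against 0.244 in FFa it is loosely determined, and with 1 added to each FPKM the ratio was 0.34. Tars2 (0.53 ± 0.37, deposited q = 0.0541) and Cars2 (0.64 ± 0.44, deposited q = 0.0944) missed the threshold. Lars2 was at 29.8 FPKM in KOb against 57.9 in FFa, or 51.6% of the control (-0.96 ± 0.29, deposited q = 0.000619). The summed FPKM of the 16 mitochondrial genes was therefore lower in KOb than in FFa, at 72.0 against 88.8, while without Lars2 it was higher, at 42.2 against 31.0.

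Using the normal p of the Cuffdiff statistic, 2 synthetase genes were higher in KOb after the same adjustment, Rars and Tars, and 1 was lower, Lars2. That reading called 3.75% of all tested genes higher and 6.01% lower.

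**Figure D3:**
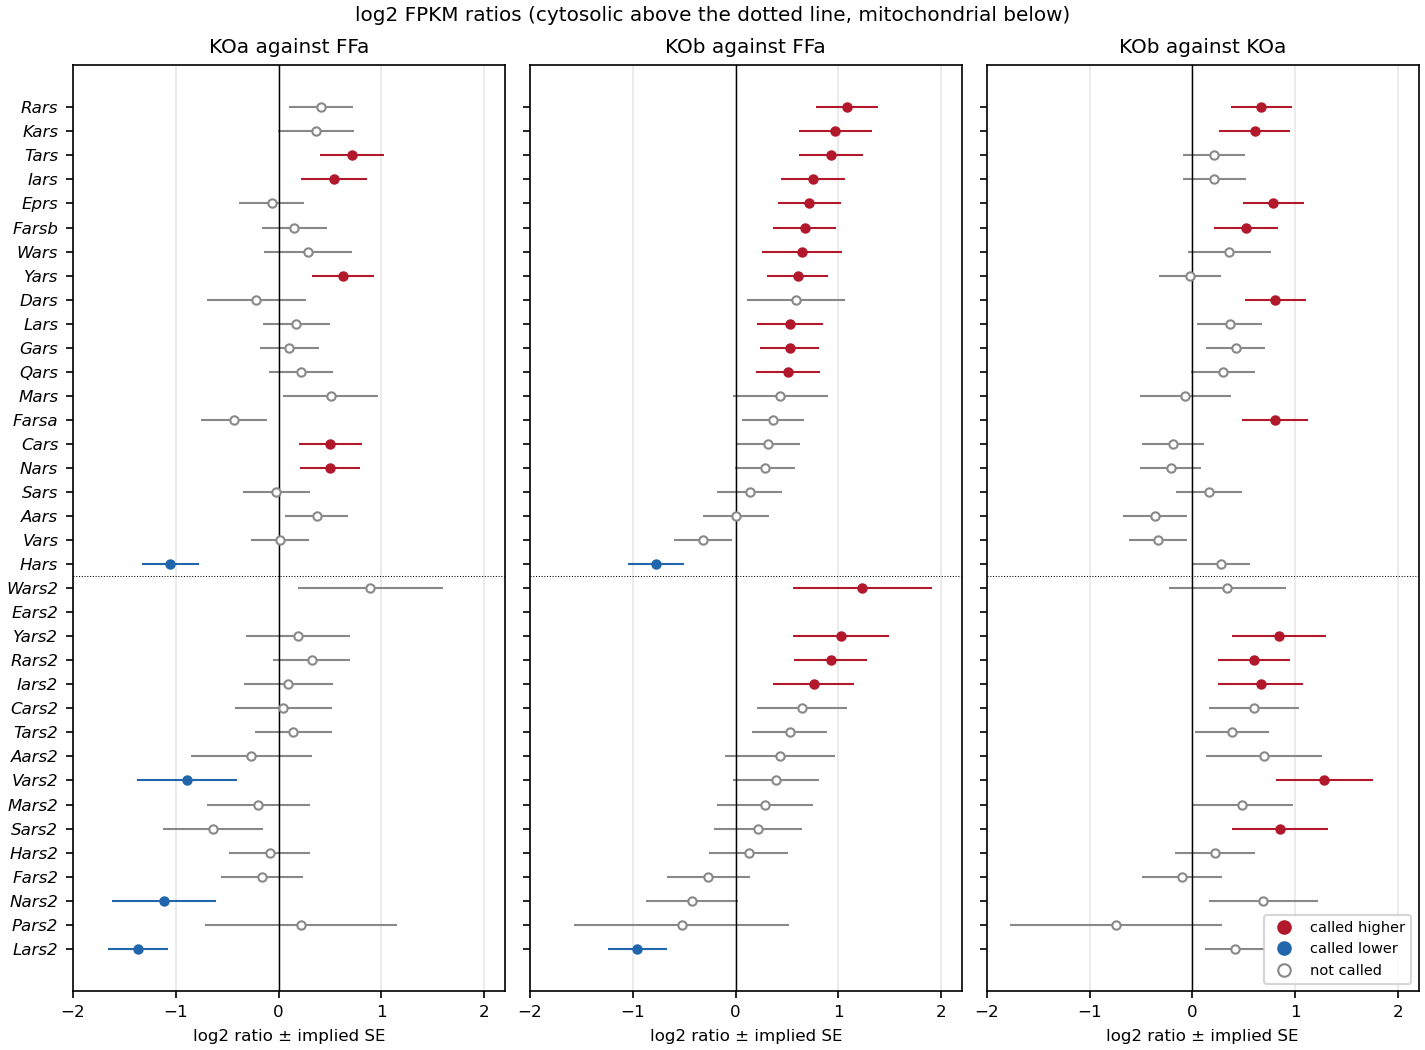
Log2 FPKM ratios of the synthetase genes in the 3 comparisons, with bars of 1 implied standard error; filled red and blue points are called higher and lower at q below 0.05, and open points are not called. Genes are ordered by KOb against FFa, cytosolic above and mitochondrial below the dotted line, and Ears2 has no tested value. There are 15 red points in KOb against FFa and 5 in KOa against FFa, of which Iars, Tars and Yars are red in both, and Hars and Lars2 are blue in both.

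KOb against KOa compares the 2 mutant populations, which differ in deletion and in gate. In KOb 11 synthetase genes were higher and 0 lower than in KOa of 35 tested, against 10.05% of all tested genes called higher and 6.19% called lower. At an unadjusted p below 0.05 in the Cuffdiff table, 16 were higher and 1 lower, and with the normal reading 5 and 0, of which 0 passed adjustment in either direction, against 1.95% of all tested genes higher and 0.898% lower. The median log2 ratio was 0.29 over the cytosolic and 0.60 over the mitochondrial genes, beside 0.04 over all 10468 tested genes.

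Of the 8 complex members, 4 were higher in KOb than in KOa. Dars had 47.0 FPKM in KOb against 26.9 in KOa (0.81 ± 0.30) and Eprs 9.28 against 5.38 (0.79 ± 0.30), both with a deposited q of 0.000619. For Rars the ratio was 0.67 ± 0.30 and for Kars 0.61 ± 0.35. Both phenylalanyl subunits were higher too, Farsa at 10.2 against 5.85 FPKM (0.80 ± 0.32, deposited q = 0.00161) and Farsb at 9.69 against 6.76 (0.52 ± 0.31, deposited q = 0.0406). The q of Farsb passed the threshold narrowly.

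Vars2 showed the widest separation of the mutants, at 1.35 FPKM in KOb against 0.553 in KOa, 2.43-fold (1.28 ± 0.47, deposited q = 0.00115, or a ratio of 0.60 with 1 added to each FPKM). It fell in KOa and was not called in KOb, where its ratio to FFa was 0.39 ± 0.41. Sars2, the mitochondrial seryl gene, had 2.42 FPKM in KOb, 1.34 in KOa and 2.08 in FFa, and only the difference between the mutants passed (0.85 ± 0.47, deposited q = 0.0325). Yars2 (0.84 ± 0.46), Iars2 (0.67 ± 0.41) and Rars2 (0.60 ± 0.35) were also higher in KOb. Tars, Yars and Iars, which rose in both mutants, had ratios of 0.21 ± 0.30, -0.02 ± 0.30 and 0.21 ± 0.31 between them and were not called. Cars and Nars, called in KOa but not in KOb, likewise did not pass between the mutants, at -0.19 ± 0.30 and -0.21 ± 0.30, so a difference between KOa and KOb was not shown for these 5 genes. For Hars (0.28 ± 0.28) and Lars2 (0.41 ± 0.29, deposited q = 0.0786) the difference between the mutants missed the threshold as well.

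**Figure D4:**
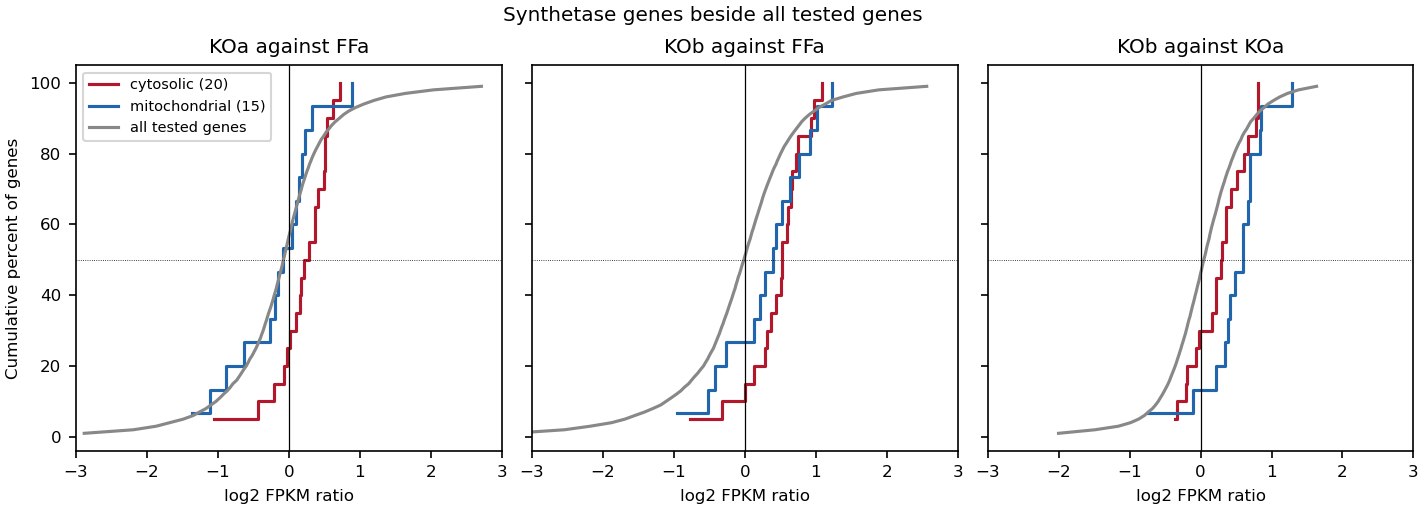
Cumulative percent of genes (y axis) by log2 FPKM ratio (x axis) for the 20 cytosolic and 15 tested mitochondrial synthetase genes and, in grey, for all tested genes, in each comparison. At the dotted 50% line the cytosolic curve lies at 0.25, 0.53 and 0.29 and the mitochondrial one at -0.09, 0.39 and 0.60, with all tested genes at -0.08, -0.01 and 0.04.

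By gene over the 3 comparisons, Iars, Tars and Yars rose in both mutants, and Hars and Lars2 fell in both. Eprs, Farsb, Kars, Rars, Iars2, Rars2 and Yars2 were higher in KOb than in FFa and also higher than in KOa. Gars, Lars, Qars, Wars and Wars2 were called in KOb against FFa alone, and Dars, Farsa and Sars2 between the mutants alone. No comparison called Aars, Mars, Sars, Vars, Aars2, Cars2, Fars2, Hars2, Mars2, Pars2 or Tars2. Synthetases fall into 2 structural classes by the fold of their active site. Among the cytosolic genes, of the 9 encoding class I enzymes alone, 6 rose in KOb and 3 in KOa, and of the 10 of class II, 4 rose and 1 fell in KOb, and 2 rose and 1 fell in KOa.

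The 5 genes with a CARE in the window were set beside the 8 cytosolic genes that have a window without one. In KOa, 3 of the 5 (Iars, Tars and Yars) were called higher and 0 of the 8, with median log2 ratios of 0.54 and 0.07. In KOb against FFa, 4 of the 5 (these and Gars) and 4 of the 8 were called higher, with medians of 0.61 and 0.55. Between KOb and KOa, 0 of the 5 and 5 of the 8 were called higher, with medians of 0.21 and 0.56. Aars, with 2 matches, was at 14.3 FPKM in KOb, 18.4 in KOa and 14.2 in FFa and was not called. Cars and Nars, the other 2 rises of KOa, have no window in the table. Nor has Hars, the cytosolic gene that fell in both mutants. These counts are small, no test was made of them, and the motif was chosen with the ratios known.

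Other genes of tRNA charging and use were looked at by list. The counts of these lists against FFa stand beside 12.8% of all tested genes called higher and 15.2% lower in KOb, and 7.99% and 14.1% in KOa. For KOb against KOa the shares of all tested genes were 10.05% and 6.19%. The 3 scaffold genes of the complex were not called against FFa in either mutant with Cuffdiff; at an unadjusted p below 0.05, 1 of the 3 was higher in KOb and 0 in KOa. Eef1e1 had 20.8 FPKM in KOb, 13.7 in KOa and 15.6 in FFa, and was higher in KOb than in KOa (0.60 ± 0.29). Of 5 cytosolic elongation factor genes, which carry charged tRNA to the ribosome or move the ribosome on, 3 were called higher and 1 lower in KOb, and 0 higher and 1 lower in KOa. Eef1g had 38.4 FPKM in KOb against 22.4 in FFa (0.78 ± 0.27), and Eef1d 37.4 in KOb and 50.3 in KOa against 71.7 in FFa (-0.94 ± 0.30 in KOb and -0.51 ± 0.30 in KOa). With the normal p, 0 of the 5 were higher and 1 was lower in KOb, and 0 were called in KOa. Among mitochondrial elongation factors and charging helpers, 1 of 8 rose in KOb and 0 of 7 in KOa. It was Tsfm (5.76 FPKM in KOb against 3.35 in FFa, 0.78 ± 0.38), and 4 of 8 were higher in KOb than in KOa. Genes of the selenocysteine tRNA pathway rose in 1 of 7 cases in KOb (Pstk, the kinase of seryl-tRNA for selenocysteine, 1.54 ± 0.55) and fell in 2 of 7 in KOa (Sephs2 at -0.99 ± 0.34 and Secisbp2 at -1.06 ± 0.48). The shares called higher in KOb against FFa in these last lists, 12.5% and 14.3%, are close to that of all genes. With the normal p neither list had a gene called in either mutant against FFa.

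tRNA processing and export genes rose in 8 of 18 tested in KOb and 1 of 19 in KOa. Rpp40, a subunit of RNase P, had 1.43 FPKM in KOb, 0.410 in KOa and 0.336 in FFa (2.09 ± 0.67 in KOb). Of tRNA modification genes 7 of 30 rose in KOb and 1 of 29 in KOa. The cytosine methyltransferase gene Nsun2 had 9.11 FPKM in KOb, 3.69 in KOa and 4.02 in FFa (1.18 ± 0.31 in KOb), and Trmt6, part of the enzyme that makes a methyladenosine in tRNA, rose in both mutants (1.67 ± 0.42 in KOb and 0.84 ± 0.44 in KOa). RNA polymerase III, which transcribes tRNA genes, and its factors had 5 of 24 genes higher in KOb and 1 of 24 in KOa. Gtf3c1, the largest subunit of TFIIIC, was higher in both (1.10 ± 0.30 in KOb and 1.22 ± 0.30 in KOa). With the normal p, 2 processing, 2 modification and 1 polymerase III gene were higher in KOb, and 0, 0 and 1 in KOa. No gene of these 3 lists was called lower in either mutant against FFa. As with the synthetases, more members were called in KOb than in KOa, and all genes were also called higher more often in KOb, in 12.8% against 7.99% of tests.

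Genes of the ATF4 and amino acid response were called higher in 12 and lower in 3 of 26 tests in KOb (median log2 ratio 0.32). The counts in KOa were the same, 12 and 3, of 27 tests (median 0.43). The shares called lower, 11.5% in KOb and 11.1% in KOa, lie near the 15.2% and 14.1% of all tested genes, while the shares called higher were 46.2% and 44.4%, beside 12.8% and 7.99%. With the normal p, 9 were higher and 2 lower in KOb, and 6 and 2 in KOa. Slc1a4, a neutral amino acid transporter, had 13.7 FPKM in KOb and 17.3 in KOa against 0.236 in FFa, and Chac1, which degrades glutathione, had 3.54 and 4.95 against 0.757. Asns, which makes asparagine and is a textbook ATF4 target, was lower in both mutants, at 6.30 and 7.04 against 16.8 FPKM, and is named here after its values were seen. Of the 4 eIF2 alpha kinase genes 0 were called in any comparison with Cuffdiff, and at an unadjusted p below 0.05 1 was lower in KOb against FFa, 1 in KOb against KOa and 0 in KOa against FFa. The normal p with adjustment also called 0. Eif2ak1 was at 46.4 FPKM in KOb, 61.7 in KOa and 58.0 in FFa (-0.32 ± 0.31 in KOb and 0.09 ± 0.30 in KOa). The kinases act through phosphorylation, which RNA levels do not measure.

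**Figure D5:**
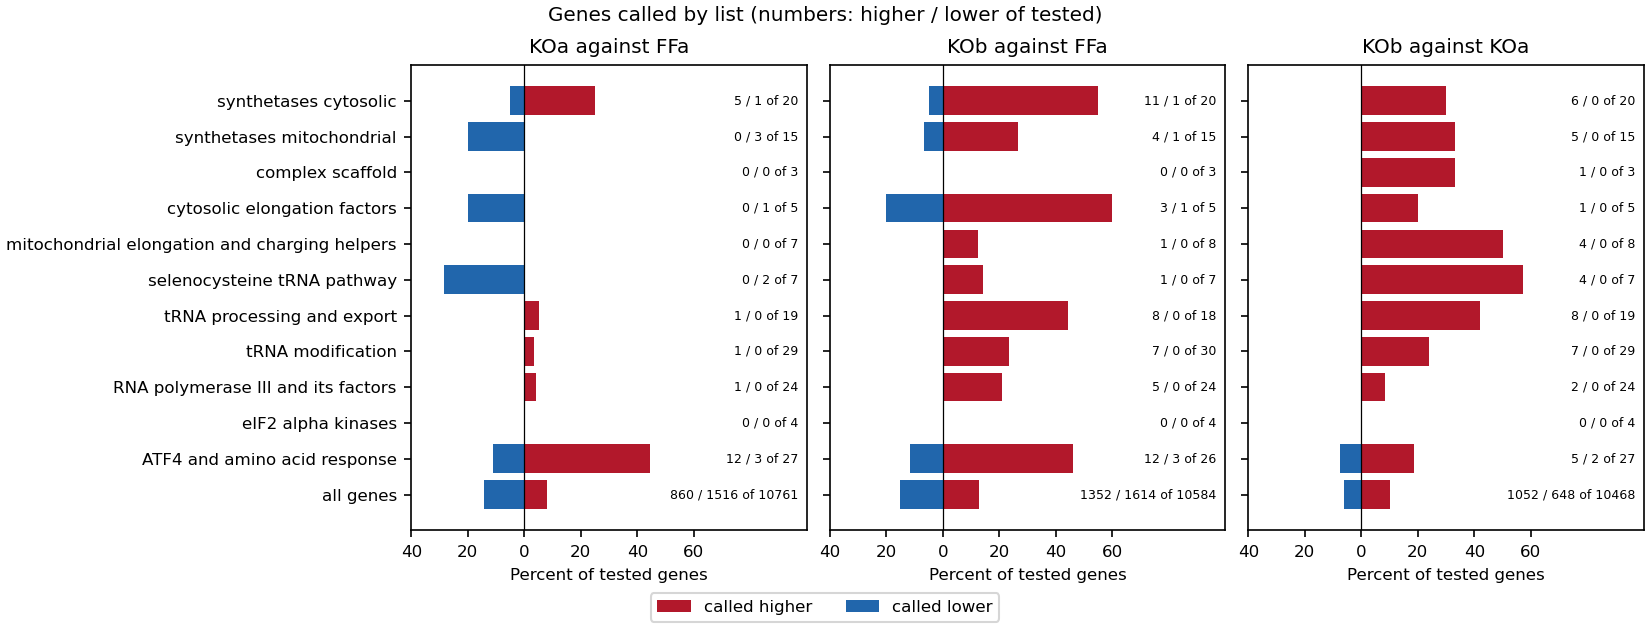
Percent of tested genes called higher (red, to the right) and lower (blue, to the left) in the synthetase lists, 9 other lists of tRNA and amino acid genes, and all genes, in the 3 comparisons; the numbers at the right give genes higher and lower of those tested. In KOb against FFa 11 of 20 cytosolic synthetase genes are called higher, beside 1352 of 10584 of all genes.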

How the data were processed

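RNA was purified on columns with DNase treatment, and libraries were made from total RNA with the NuGEN Encore Complete kit, per the labels' protocols. TopHat2 2.0.8b, Bowtie2 2.1.0 and Cuffdiff 2.1.1 with build mm10 are named in the submitters' processing notes. For annotation, filters, strand and scaling, the sources used here give nothing. Deposited was 1 table with the FPKM of each group, already merged over 3 libraries, the log2 ratio without pseudocount, a test statistic (a score for that ratio), with its p-value and its q-value, all computed by the authors. A check found the q column equal to Benjamini-Hochberg values over 31813 tests of the 3 comparisons together, within 5.27e-07.

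Here the rows of the 36 genes were read from the whole table, the implied standard error was taken as the size of the log2 ratio over that of the statistic, and calls were counted at q below 0.05 beside all tested genes. No model could be fitted without values per library. The Benjamini-Hochberg adjustment and the implied standard error were tested on simulated log ratios with large planted changes. The motif search, exon overlaps, list counts and scalings were not tested in this way. Every synthetase gene may be named; from other lists, up to 4 called genes of largest change with at least 1 FPKM, or the 2 of highest FPKM where none was called, and always Eif2ak1 and Trim28. Alternatives were the normal p of the statistic, q within a comparison or below 0.01, a minimum of 5 FPKM, a pseudocount of 1 FPKM, and 2 other scalings. The genes, lists and motifs were chosen with earlier results of these data known. Promoter windows came from RefSeq (GRCm38.p6) and exon overlaps from GENCODE M21 (GRCm38). Python 3.11.15, pandas 2.3.3 and scipy 1.17.1 were used. Some genes are not reported here.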

Additional observations from a re-analysis of the deposited data

How the results depend on the processing

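Without values per library, depth is unknown and no library could be left out. No paired analysis was possible because the table holds 1 value per group and its columns carry no replicate numbers. With the normal reading of the statistic, KOa kept 0 higher and 2 lower of its 9 deposited synthetase calls against FFa. For KOb against the same control, 2 higher and 1 lower remained of 17. Between the mutants, 0 remained of 11. Most of the 105 ratios of synthetase genes had no deposited call to lose, and 32 lost theirs. The cause was not tested. With q below 0.01, 2 genes were higher in KOa against FFa and 5 in KOb against KOa. With at least 5 FPKM in both groups, which leaves fewer genes, the counts were 2 lower in KOa, 8 higher in KOb and 7 higher in KOb against KOa. Leaving out Lars2, added after the data were seen, left 1 gene lower in KOb. Adjusting within each comparison gave Tars2 a call in KOb and ended that of Farsb between the mutants. Both other scalings kept the deposited calls and shifted every log2 ratio of a comparison by a constant. Centring used the median of expressed genes (-0.05, 0.02 and 0.05). Rescaling by genes between 1 and 1000 FPKM raises every log2 ratio by 0.13, 0.23 and 0.10. Every called ratio is larger in size than these shifts, so no call could be reversed. Under the rescaling the medians over all tested members were 0.27, 0.74 and 0.48. A pseudocount of 1 FPKM moved 4 of 105 ratios, those of Nars2, Vars2 (in 2 comparisons) and Wars2, all toward 0.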
